A study of Mus musculus with 15 samples.

Results

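The genes described here are the 2 mouse arginases, Arg1 and Arg2, and 5 genes of polyamine metabolism: Odc1, Srm, Sms, Amd1 and Sat1. They are 7 of 52327 named entries of a table of gene counts, matched by symbol, and all 7 were found. They were chosen from values in these same libraries, since the difference in Arg1 between the groups that carry both alleles was known when the set was proposed. The levels of Arg1 in those groups, and all 7 genes in the comparison of the 2 orders, are therefore given as a description without a test. All 7 genes passed the filter on low counts. Arg1 and Arg2 did so only through the groups in which they were high, so their presence among the tested genes is no evidence of a difference.

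mRNA was sequenced from a mouse line that the labels call HoxB, with blood as its cell type, in 5 groups of 3 libraries. EMPTY cells carried control vectors. RUNX1-ETO_ONLY cells carried RUNX1-ETO, the leukaemia fusion of a haematopoietic transcription factor with the corepressor ETO. CSF3R_ONLY cells carried CSF3R-T618I, an activating change of the receptor for granulocyte colony-stimulating factor. RUNX1-ETO_FIRST and CSF3R_FIRST cells carried both, and each name gives the allele introduced first. The question posed by the series is whether that order matters. All 5 groups share the HoxB background, and the labels do not say how it was made, how or when each allele was introduced, or whether a group is 1 clone. Nor is it stated that the 3 libraries of a group came from different cultures: p-values here measure the spread between libraries, which may be technical.

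Arginases split arginine into urea and ornithine: Arg1 in the cytosol, where it is best known from liver and from alternatively activated macrophages, and Arg2 in mitochondria. Odc1, ornithine decarboxylase, turns ornithine into putrescine. Srm and Sms, spermidine synthase and spermine synthase, then add aminopropyl groups, which come from S-adenosylmethionine decarboxylated by Amd1. Sat1 acetylates spermidine and spermine and so starts their export and breakdown. Proliferating cells hold high polyamine levels, Odc1 is a textbook target of MYC, and arginine is also the substrate of the nitric oxide synthases.

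Upstream windows of Odc1, Sms and Sat1 are shown as sequence. RUNX1-ETO binds DNA through its RUNX1 part, and the receptor signals through STAT proteins. RefSeq tables for GRCm38.p6 held upstream windows for Odc1, Sms, Amd1 and Sat1, of 250 bases each, and 2 starts of Sms. In the first 2 of the windows below, each with a motif match, capitals mark the match; the window of Sat1, which moved differently from the other genes, held none and is all in lower case. They lie at chr12:17544623-17544872 on the plus strand for Odc1, at chrX:157492288-157492537 on the minus strand for Sms and at chrX:155216450-155216699 on the minus strand for Sat1, and read 5′ to 3′ towards the RefSeq start, which for Odc1 lies inside the GENCODE gene given below.
Odc1: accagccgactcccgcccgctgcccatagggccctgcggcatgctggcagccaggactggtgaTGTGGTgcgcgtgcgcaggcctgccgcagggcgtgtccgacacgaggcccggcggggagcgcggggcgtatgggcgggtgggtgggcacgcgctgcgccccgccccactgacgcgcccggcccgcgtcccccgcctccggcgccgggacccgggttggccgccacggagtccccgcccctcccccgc
Sms: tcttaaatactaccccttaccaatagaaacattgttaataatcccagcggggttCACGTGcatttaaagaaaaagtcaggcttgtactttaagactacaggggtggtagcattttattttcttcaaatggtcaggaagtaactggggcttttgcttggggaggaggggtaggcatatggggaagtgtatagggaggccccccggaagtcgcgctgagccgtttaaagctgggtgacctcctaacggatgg
Sat1: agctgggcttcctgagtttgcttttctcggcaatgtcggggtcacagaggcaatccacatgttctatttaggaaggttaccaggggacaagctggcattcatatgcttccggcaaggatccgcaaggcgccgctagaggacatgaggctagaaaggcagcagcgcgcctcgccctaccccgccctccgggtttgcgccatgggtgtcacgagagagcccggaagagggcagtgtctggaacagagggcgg
The capitals in Odc1 are the RUNX core TGTGGT, from 187 to 182 bases before the start. Those in Sms are the E-box CACGTG, the site that MYC and MAX are known to bind, from 196 to 191 bases before the start. Both strands were searched for these 2 motifs and for the STAT motif TTCNNNGAA. The RUNX core occurred in 14.05% of 32851 windows of the same length, the E-box in 6.021% and the STAT motif in 7.02%. None of the 3 motifs was found in the windows of Amd1, Sat1 or the second start of Sms. The windows of Amd1 and of that second start are not shown. Guanine and cytosine made up 80.0% of the Odc1 window, 64.4% of that of Amd1, 59.6% of that of Sat1, and 47.2% and 75.2% of the windows of Sms. A match is a stretch of letters and was not tested as a binding site.

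Libraries held 17007437 to 18178292 counts. Runx1t1, the mouse gene for ETO, had 0 counts in every EMPTY and CSF3R_ONLY library and 381 to 812 CPM (counts scaled to a common library total) in the 3 groups labelled with the fusion. Csf3r was at 617 to 626 CPM in CSF3R_ONLY, 507 to 536 in RUNX1-ETO_ONLY, 373 to 465 in EMPTY, and 366 to 441 over the groups with both alleles. The species of the introduced sequences is not stated, so this row does not check the receptor allele. All 8 haematopoietic markers examined had a mean of at least 1 CPM in every group. The 6 hepatocyte markers summed to at most 0.262 CPM and the 6 fibroblast markers to at most 1.33 CPM in any library. In 4 libraries long transcripts ran lower than in the other libraries of their group, with correlations of deviation and length from -0.275 to -0.478 over 12799 genes. These were replicate 3 of EMPTY, of RUNX1-ETO_ONLY and of CSF3R_FIRST, together with replicate 1 of RUNX1-ETO_FIRST, and results that rest on them are given without them too. In bulk RNA, more cells of a type and more RNA per cell cannot be told apart, which holds for every difference below.

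Arg1 (chr10:24915221-24927484, minus strand, mm10) was read almost only in cells with both alleles. EMPTY libraries had 0, 0 and 0 counts, RUNX1-ETO_ONLY libraries 1, 1 and 4, and CSF3R_ONLY libraries 0, 0 and 3. RUNX1-ETO_FIRST libraries had 156, 151 and 139 counts, and CSF3R_FIRST libraries 633, 673 and 778. The 3 groups with at most 1 allele lay at or near the floor of 3 counts per library, and all 6 libraries with both alleles lay far above it without overlap. In CPM, the RUNX1-ETO_FIRST libraries stood at 8.75, 8.31 and 7.84 and the CSF3R_FIRST libraries at 38.1, 39.7 and 47.2.

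Set against the floor of 3 counts per library, Arg1 was at least 48.7-fold higher in RUNX1-ETO_FIRST than in EMPTY and at least 244-fold higher in CSF3R_FIRST. Relative to RUNX1-ETO_ONLY, which held 6 counts in all, the ratio of Arg1 counts in RUNX1-ETO_FIRST was 80.4, with an exact 95% interval of 36.7 to 220.4. Leaving out RUNX1-ETO_ONLY replicate 3, which held 4 of those 6 counts, gave 162 with an interval of 44.6 to 1343. Relative to CSF3R_ONLY with its 3 counts, all in replicate 3, the ratio in CSF3R_FIRST was 718, with an interval of 245 to 3486. Without that library the CSF3R_FIRST level was at least 239-fold higher. These intervals cover counting error only. No fold is given among the 3 other groups, where Arg1 was at or under the floor.

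Arg2 (chr12:79130777-79156301, plus strand) was far scarcer and highest in CSF3R_ONLY and CSF3R_FIRST. Its counts were 0, 0 and 4 in EMPTY, 4, 2 and 0 in RUNX1-ETO_ONLY, 25, 25 and 16 in CSF3R_ONLY, 14, 5 and 6 in RUNX1-ETO_FIRST, and 26, 33 and 32 in CSF3R_FIRST. Every library of CSF3R_ONLY and CSF3R_FIRST lay above every library of the other 3 groups. The mean level was 1.28 ± 0.306 CPM (SD, n = 3) in CSF3R_ONLY and 1.82 ± 0.220 CPM in CSF3R_FIRST, against 0.466 ± 0.278 CPM in RUNX1-ETO_FIRST. The ratio of Arg2 counts to those of EMPTY was 16.8 (exact 95% interval 6.28 to 63.6) in CSF3R_ONLY and 24.0 (9.06 to 90.0) in CSF3R_FIRST, and both rest on 4 EMPTY counts, all of them in replicate 3. Without that library Arg2 was at least 7.68-fold and at least 10.96-fold higher, against the floor of 3 counts per library. These intervals, too, cover counting error only.

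In RUNX1-ETO_FIRST, 14 of the 25 counts of Arg2 lay in replicate 1. The ratio of all 25 to the 4 EMPTY counts, scaled by library, was 6.14 (2.12 to 24.3), and without EMPTY replicate 3 the level was at least 2.80-fold higher, against the same floor. The difference from EMPTY did not hold up against the spread between libraries in every setting. By edgeR's quasi-likelihood test its adjusted p was 0.0283, but 0.0949 without EMPTY replicate 1, 0.0898 without EMPTY replicate 2 and 0.133 without RUNX1-ETO_FIRST replicate 1, with a range from 0.000253 to 0.133 over 22 alternatives. Between CSF3R_FIRST and CSF3R_ONLY the log2 difference of Arg2 was 0.51 with a 95% interval from -0.48 to 1.49 (adjusted p = 0.377). Because Arg2 passed the filter on low counts only through the groups in which it was high, these p-values are a description.

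Taken as shares of all arginase counts, Arg1 gave 94.7% in RUNX1-ETO_FIRST (exact 95% interval 92.3% to 96.5%) and 95.8% in CSF3R_FIRST (94.9% to 96.6%). In CSF3R_ONLY the share was 4.35% (0.906% to 12.2%), from 3 Arg1 counts and 66 Arg2 counts. The groups with both alleles thus read mostly the cytosolic arginase and CSF3R_ONLY mostly the mitochondrial one, at levels that differ between the groups as given above. EMPTY held 4 arginase counts and RUNX1-ETO_ONLY 12, too few to place their shares.

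**Figure D1:**
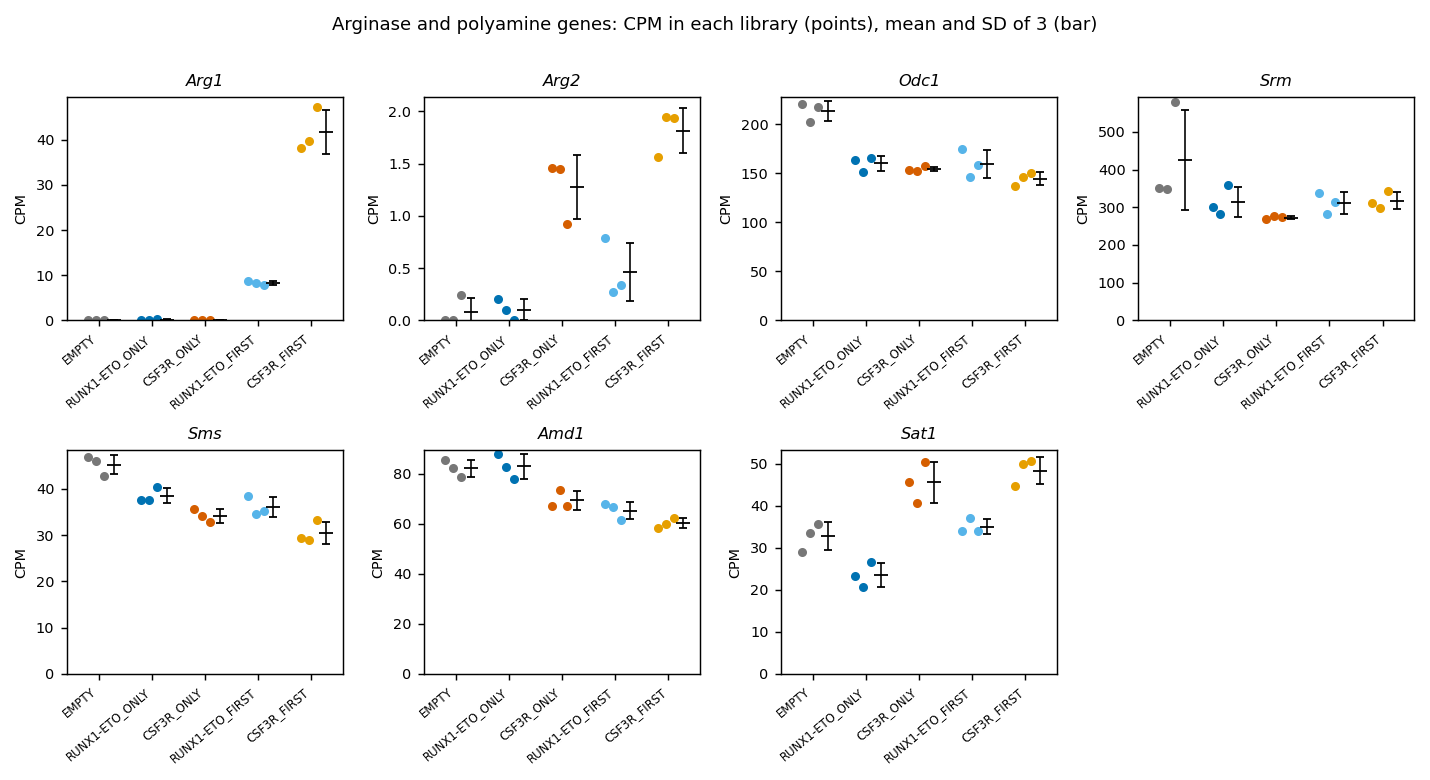
Each panel plots 1 gene, with the 5 groups on the horizontal axis and CPM on the vertical axis from 0; points are single libraries and the black bar is the mean with the SD of 3 libraries. Arg1 stands between 7.84 and 47.2 CPM in RUNX1-ETO_FIRST and CSF3R_FIRST and near 0 elsewhere, Odc1 is highest in the 3 EMPTY libraries, Srm has 1 EMPTY library at 578 CPM, and Sat1 is lowest in RUNX1-ETO_ONLY.

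Odc1 (chr12:17544794-17551505, plus strand) fell in every group that carried an allele. EMPTY libraries stood at 221, 202 and 218 CPM. RUNX1-ETO_ONLY stood at 164, 151 and 166 CPM, CSF3R_ONLY at 153, 153 and 157, RUNX1-ETO_FIRST at 174, 147 and 158, and CSF3R_FIRST at 137, 146 and 150.5. No library with an allele reached the lowest EMPTY library, and the 4 groups with an allele overlapped or lay next to one another.

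Against EMPTY, the log2 difference of Odc1 was -0.42 (SE 0.074, adjusted p = 0.000326) in RUNX1-ETO_ONLY, a 1.33-fold fall. It was -0.47 (adjusted p = 0.000134) in CSF3R_ONLY, -0.42 (0.000244) in RUNX1-ETO_FIRST and -0.56 (9.87e-06) in CSF3R_FIRST. All 4 calls held in all 23 alternatives. With the second allele no further difference passed the threshold. It was -0.00 (95% interval -0.17 to 0.16) between RUNX1-ETO_FIRST and RUNX1-ETO_ONLY, and -0.10 (-0.26 to 0.07) between CSF3R_FIRST and CSF3R_ONLY, with adjusted p of 0.974 and 0.321.

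Srm (chr4:148591503-148594993, plus strand) was the member with the most reads. EMPTY libraries stood at 349.7, 347 and 578 CPM, so replicate 3, one of the 4 libraries low in long transcripts, lay far above the others. RUNX1-ETO_ONLY stood at 300.2, 283 and 359 CPM, CSF3R_ONLY at 268, 276 and 273, RUNX1-ETO_FIRST at 338, 282 and 314, and CSF3R_FIRST at 312, 299 and 342. All CSF3R_ONLY libraries lay below all others.

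In CSF3R_ONLY, Srm fell against EMPTY (log2 difference -0.64, SE 0.158, adjusted p = 0.00515), and without EMPTY replicate 3 the difference was -0.38 (adjusted p = 0.00267, and at most 0.044 over 23 alternatives). The other falls against EMPTY were lost without that library alone, but not without all 4 libraries low in long transcripts, which include it. They stood at -0.44 (adjusted p = 0.0386) with the fusion alone, -0.45 (0.0303) in RUNX1-ETO_FIRST and -0.42 (0.0346) in CSF3R_FIRST. Without EMPTY replicate 3 these became -0.17 (adjusted p = 0.161), -0.18 (0.109) and -0.13 (0.235). Over all alternatives the adjusted p of these 3 ranged from 7.96e-05 to 0.161, from 0.00021 to 0.142 and from 0.00331 to 0.235.

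Sms (chrX:157443855-157492287, minus strand) ran in the same direction as Odc1 against EMPTY. Its falls were smaller except in CSF3R_FIRST, where the log2 differences were -0.57 for Sms and -0.56 for Odc1. EMPTY libraries stood at 46.9, 45.9 and 42.8 CPM, and RUNX1-ETO_ONLY at 37.6, 37.6 and 40.5. CSF3R_ONLY stood at 35.6, 34.2 and 32.7 CPM, RUNX1-ETO_FIRST at 38.5, 34.6 and 35.2, and CSF3R_FIRST at 29.4, 28.9 and 33.2. Every EMPTY library lay above every other library, and CSF3R_FIRST overlapped only CSF3R_ONLY.

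Sms fell against EMPTY by 0.40 on the log2 scale in CSF3R_ONLY (SE 0.079, adjusted p = 0.000911). It also fell by 0.33 in RUNX1-ETO_FIRST (adjusted p = 0.00335) and by 0.57 in CSF3R_FIRST (1.86e-05). The fall of 0.23 in RUNX1-ETO_ONLY passed at an adjusted p of 0.0297 but was lost in 7 of 23 alternatives. Adding the other allele to a single one left differences of -0.09 (95% interval -0.27 to 0.08) and -0.16 (-0.34 to 0.01), neither past the threshold.

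Amd1 (chr10:40287458-40302186, minus strand) stayed near the control with the fusion alone. Of the other synthesis genes, Odc1 fell there in every alternative, and the falls of Srm and Sms were lost in 9 and 7 of them. EMPTY libraries stood at 85.3, 82.4 and 78.6 CPM and RUNX1-ETO_ONLY libraries at 87.8, 82.8 and 77.9. CSF3R_ONLY stood at 67.2, 73.5 and 67.1 CPM, RUNX1-ETO_FIRST at 67.7, 66.6 and 61.4, and CSF3R_FIRST at 58.4, 59.7 and 62.3. All 9 libraries with the receptor lay below all 6 without it.

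The difference of Amd1 between RUNX1-ETO_ONLY and EMPTY was 0.01 with a 95% interval from -0.15 to 0.17 (adjusted p = 0.915). CSF3R_ONLY lay lower than RUNX1-ETO_ONLY by 0.26 on the log2 scale (adjusted p = 0.00837). Against EMPTY, Amd1 fell by 0.33 in RUNX1-ETO_FIRST (SE 0.073, adjusted p = 0.00149) and by 0.45 in CSF3R_FIRST (7.89e-05). It fell by 0.34 from RUNX1-ETO_ONLY to RUNX1-ETO_FIRST (adjusted p = 0.00214). The fall of 0.25 from EMPTY to CSF3R_ONLY (adjusted p = 0.0162) was lost without EMPTY replicate 1 (adjusted p = 0.0586), without CSF3R_ONLY replicate 1 (0.0687) or replicate 3 (0.0727), and with those groups fitted alone (0.0512), and the adjusted p ranged from 8.12e-05 to 0.0727 over 23 alternatives. The fall of 0.20 from CSF3R_ONLY to CSF3R_FIRST (adjusted p = 0.0323) was lost in 7 of 23 alternatives. Close copies took few reads: Amd2 had 3 to 13 counts per library, the 6 Amd pseudogenes at most 6 each, and Sms-ps 3 to 15.

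Sat1 (chrX:155213132-155216449, minus strand), on the side of breakdown, split the 2 single alleles. EMPTY libraries stood at 29.1, 33.7 and 35.7 CPM. RUNX1-ETO_ONLY stood lower, at 23.2, 20.8 and 26.6 CPM, and CSF3R_ONLY higher, at 45.8, 40.6 and 50.5. RUNX1-ETO_FIRST stood at 34.0, 37.1 and 34.1 CPM, overlapping EMPTY, and CSF3R_FIRST at 44.6, 49.9 and 50.7, overlapping CSF3R_ONLY.

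Sat1 fell by 0.48 on the log2 scale with the fusion alone (SE 0.110, adjusted p = 0.00259) and rose by 0.47 with the receptor alone (SE 0.109, adjusted p = 0.003), both against EMPTY. Between the 2 single alleles it was 1.94-fold lower with the fusion (log2 difference -0.96, SE 0.110, adjusted p = 2.88e-06). All 3 calls held in all 23 alternatives. RUNX1-ETO_FIRST lay above RUNX1-ETO_ONLY by 0.58 (adjusted p = 0.000988), and CSF3R_FIRST above EMPTY by 0.56 (0.000417). Neither RUNX1-ETO_FIRST against EMPTY (0.10, 95% interval -0.15 to 0.34) nor CSF3R_FIRST against CSF3R_ONLY (0.09, -0.15 to 0.32) passed the threshold.

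**Figure D2:**
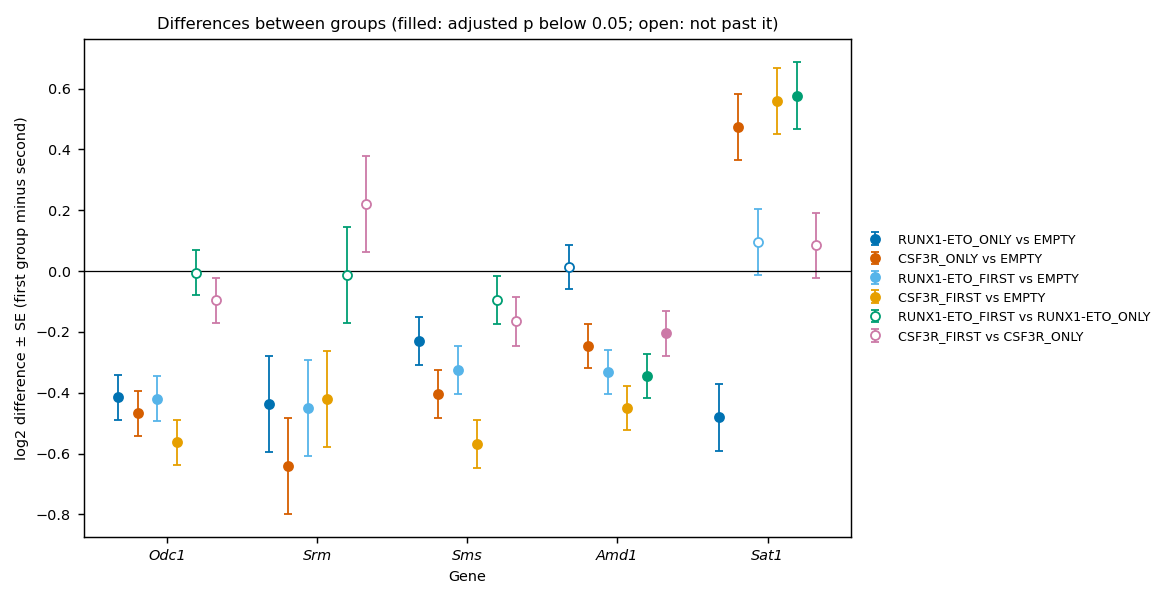
The vertical axis gives the log2 difference with its SE for 5 genes and 6 comparisons, coloured by comparison; filled points passed an adjusted p of 0.05 and open points did not. Comparisons with EMPTY share its 3 libraries. The 4 values of Odc1 against EMPTY lie between -0.42 and -0.56, and Sat1 is the only one of the 5 genes with filled points on both sides of 0.

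Of the 5 members other than the arginases, 4 passed the threshold in RUNX1-ETO_ONLY against EMPTY (Odc1, Srm, Sms and Sat1, all lower), where 39% of 13123 genes did. All 5 passed in CSF3R_ONLY against EMPTY, Sat1 higher and the other 4 lower, where 33.1% of all genes did. Between RUNX1-ETO_ONLY and CSF3R_ONLY, Amd1 and Sat1 differed, 2 of 5 against 46% of all genes. Against EMPTY, 4 passed in RUNX1-ETO_FIRST and 5 in CSF3R_FIRST, where the shares of all genes were 44% and 53.5%. Relative to the single alleles, 2 passed in RUNX1-ETO_FIRST (Amd1 lower and Sat1 higher, against 26.3% of genes) and only Amd1 in CSF3R_FIRST (against 44.9%). With so many genes past the threshold, a count of members by itself says little, and the sizes above carry the description.

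Within a library, the ratio of Sat1 to Odc1 CPM was 0.154 ± 0.0195 in EMPTY and 0.147 ± 0.0124 in RUNX1-ETO_ONLY. It was 0.295 ± 0.0277 in CSF3R_ONLY, 0.221 ± 0.0295 in RUNX1-ETO_FIRST and 0.335 ± 0.00768 in CSF3R_FIRST (SD, n = 3). The 3 groups with the receptor lay above both groups without it in every library. No test was run on the ratio.

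Per kilobase of exon, Srm had the highest mean level of the 7 genes in every group, from 170 to 266 CPM per kb, and Odc1 the second highest, from 42.5 to 62.7. Amd1 followed in 4 groups, from 18.4 to 23.4 CPM per kb. In CSF3R_FIRST, Arg1 came next after Odc1 at 18.7 ± 2.17 CPM per kb, but Sat1 at 17.5 ± 1.18 and Amd1 at 17.0 ± 0.561 lay within its spread. In RUNX1-ETO_FIRST, Arg1 stood at 3.72 ± 0.205, below Sms at 6.005 ± 0.348 and above Arg2 only. Arg2 did not exceed 1.27 CPM per kb in any group.

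**Figure D3:**
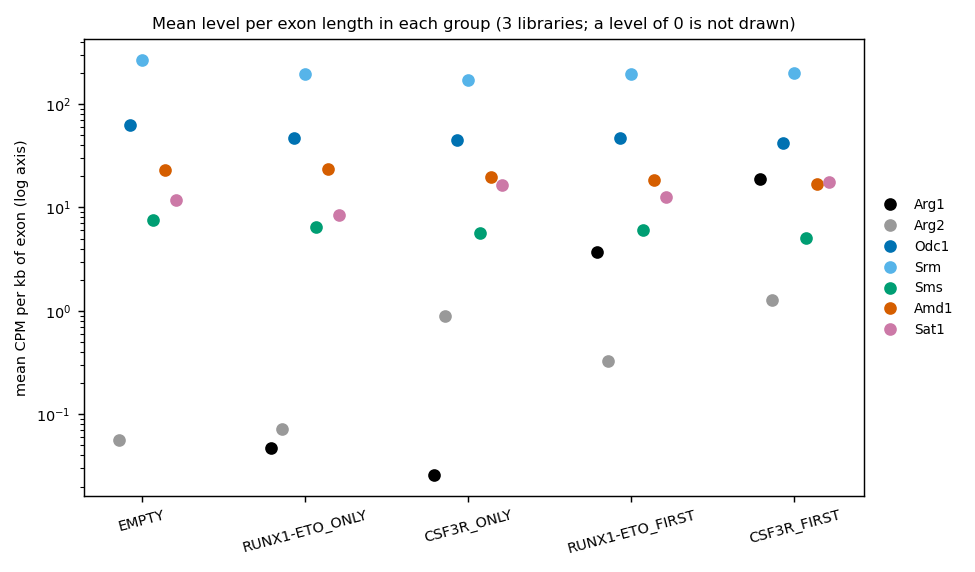
Points are the mean CPM per kb of exon of each gene over 3 libraries, on a log axis, by group; a level of 0 (Arg1 in EMPTY) is not drawn. Srm stays on top at 170 to 266 CPM per kb while Arg1 moves from the bottom to 18.7 CPM per kb in CSF3R_FIRST.

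Comparing the 2 orders, Arg1 was 5.02-fold lower in RUNX1-ETO_FIRST than in CSF3R_FIRST (log2 difference -2.33, SE 0.176), and no library of one group came near the other. The value lay between -2.39 and -2.23 over 23 alternatives. Arg2 was lower by 1.95 (SE 0.508) and Sat1 by 0.46 (SE 0.108) on the log2 scale in RUNX1-ETO_FIRST, again with no overlap between the groups' libraries. Sms was higher by 0.24 (SE 0.080) there, without overlap. Odc1 (0.14, SE 0.074), Amd1 (0.12, SE 0.073) and Srm (-0.03, SE 0.157) differed by less than 2 SE. In this comparison 18.3% of all genes passed the threshold, and nothing is read from it for the members, which were chosen with it in view.

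Additivity asks whether a group with both alleles differs from the sum of the 2 single-allele differences, on the log2 scale. Odc1 lay above that sum by 0.46 (SE 0.105, adjusted p = 0.00619) in RUNX1-ETO_FIRST, where 1 of the 5 members other than the arginases and 15.8% of all genes passed. In CSF3R_FIRST, where 22.9% of all genes passed, 3 members lay above the sum. Sat1 did so by 0.57 (SE 0.154, adjusted p = 0.0144), which was lost with library sizes alone as scaling (adjusted p = 0.052). Odc1 did so by 0.32 (adjusted p = 0.0387) and Srm by 0.66 (0.0448), and these were lost in 9 and 13 of 23 alternatives. Without EMPTY replicate 3, the library with high Srm, the value of Srm was 0.42 (adjusted p = 0.017). The 2 tests share the EMPTY and single-allele libraries. Arg2 is left out here because 2 of its groups hold 4 and 6 counts.

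Beyond the 7 genes, 65 others of the same pathways were examined in 4 lists, and 51 passed the low-count filter. The lists were polyamine handling (13 of 18 tested), arginine, ornithine and proline (18 of 24), methionine salvage and methyl donors (9 of 10), and known regulators of Odc1 or Arg1 (11 of 13). Against EMPTY, 24 of 51 (47.1%) passed in RUNX1-ETO_ONLY, 8 higher and 16 lower, beside 39% of all genes, 2724 higher and 2393 lower. In CSF3R_ONLY 30 (58.8%) passed, 15 each way, beside 33.1% of all genes, 2617 higher and 1730 lower. The counts were 14 higher and 15 lower in RUNX1-ETO_FIRST, beside 44% of all genes, and 17 and 18 in CSF3R_FIRST, beside 53.5%. Their median log2 differences in those 4 comparisons were -0.16, -0.03, -0.06 and -0.06, against 0.01, 0.00, -0.02 and -0.05 over all genes. Between the orders 3 were higher and 9 lower in RUNX1-ETO_FIRST (7 and 9 with library sizes alone), with a median of -0.04 against 0.00. Of all genes 18.3% passed there, 948 higher and 1459 lower. In RUNX1-ETO_FIRST against RUNX1-ETO_ONLY 14 were higher and 6 lower (12 and 10 with library sizes alone). This stood beside 26.3% of all genes, 2097 higher and 1357 lower. In CSF3R_FIRST against CSF3R_ONLY 9 were higher and 15 lower, beside 44.9% of all genes, 2924 higher and 2971 lower. Comparisons that share a group share its 3 libraries and are not independent of each other.

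Among arginine genes, the transporter Slc7a2, which carries arginine into cells, was read mainly in the groups that read Arg1. It had 0, 0 and 0 counts in EMPTY, 1, 0 and 2 in RUNX1-ETO_ONLY, and 2, 0 and 1 in CSF3R_ONLY. RUNX1-ETO_FIRST libraries had 6, 20 and 10 counts and CSF3R_FIRST libraries 75, 41 and 61. Slc7a2 was thus at least 3.93-fold higher in RUNX1-ETO_FIRST than in EMPTY and at least 20.8-fold higher in CSF3R_FIRST. Between the orders it was lower in RUNX1-ETO_FIRST by 2.39 on the log2 scale (SE 0.424, adjusted p = 0.00139), with no overlap between libraries. Slc7a2 passed the filter on low counts only through the groups in which it was high, so this p-value is a description. The other main arginine carrier of blood cells, Slc7a1, stood at 129.8 to 189 CPM as group means, and fell against EMPTY only in CSF3R_FIRST (-0.54, adjusted p = 0.00788).

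Nos2, the inducible nitric oxide synthase that competes with arginase for arginine, was highest in CSF3R_ONLY, where Arg1 had 3 counts in all. It stood at 206 ± 5.36 CPM (SD, n = 3) in CSF3R_ONLY, against 2.52 ± 0.0828 in EMPTY and 0.673 ± 0.407 in RUNX1-ETO_ONLY. In CSF3R_FIRST it stood at 29.3 ± 2.27 CPM and in RUNX1-ETO_FIRST at 12.1 ± 0.992. The receptor alone raised Nos2 by 6.35 (SE 0.178, adjusted p = 5.32e-13) and the fusion alone lowered it by 1.90 (SE 0.273, adjusted p = 4.09e-05). CSF3R_FIRST lay below CSF3R_ONLY by 2.82 (adjusted p = 1.84e-10) and RUNX1-ETO_FIRST above RUNX1-ETO_ONLY by 4.16 (1.51e-09). Between the orders Nos2 was lower in RUNX1-ETO_FIRST by 1.28 (adjusted p = 1.69e-05), the same side as Arg1.

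Ass1, which rebuilds arginine from citrulline, ran opposite to Nos2 with the single alleles. Its level was 71.1 ± 8.69 CPM in EMPTY, 26.8 ± 0.343 in CSF3R_ONLY and 87.5 ± 9.19 in RUNX1-ETO_ONLY. It fell by 1.41 with the receptor alone (adjusted p = 3.64e-08). Gatm, which makes the creatine precursor from arginine, rose by 1.64 with the receptor alone (adjusted p = 1.5e-10) and fell by 0.94 with the fusion alone (9.43e-08). Ddah2, which breaks down methylated arginines, rose over EMPTY in all 4 groups, by 2.79 and 2.15 with the fusion and the receptor alone, 3.43 in RUNX1-ETO_FIRST and 4.24 in CSF3R_FIRST, with adjusted p of at most 3.4e-07. Pycr1, a proline-forming enzyme downstream of ornithine and glutamate, fell only with the receptor alone, by 1.07 (adjusted p = 3.87e-06). Oat, the enzyme that takes ornithine towards proline, fell in all 4 groups against EMPTY, by 0.32 to 0.49 (adjusted p at most 0.00152). In the arginine list 9 of 18 genes passed in RUNX1-ETO_ONLY (2 higher), 9 in CSF3R_ONLY (3 higher), 11 in RUNX1-ETO_FIRST (5 higher) and 14 in CSF3R_FIRST (7 higher), all against EMPTY, where 39%, 33.1%, 44% and 53.5% of all genes passed.

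In the polyamine list 5 of 13 genes passed in RUNX1-ETO_ONLY against EMPTY (3 higher: Atp13a2, Smox and Atp13a3; 2 lower: Paox and Eif5a2) and 6 in each of the other 3 groups (4 higher), beside 39% of all genes in the first and 33.1%, 44% and 53.5% in the others. Atp13a2, the lysosomal polyamine exporter, stood at 60.5 ± 4.26 CPM in EMPTY, 174 ± 4.01 in RUNX1-ETO_ONLY, 138 ± 9.12 in CSF3R_ONLY, 214 ± 12.4 in RUNX1-ETO_FIRST and 277 ± 28.7 in CSF3R_FIRST. All 4 differences from EMPTY passed, from 1.19 to 2.19 on the log2 scale, with adjusted p of at most 2.94e-08. It lay higher with both alleles than with either alone, by 0.29 over RUNX1-ETO_ONLY (adjusted p = 0.0172, lost in 4 of 23 alternatives) and by 1.01 over CSF3R_ONLY (1.03e-07) in the group named for that allele. Slc3a2, the shared heavy chain of amino acid carriers, linked to polyamine transport, rose by 1.11 in RUNX1-ETO_FIRST (adjusted p = 2.11e-06) and by 1.78 in CSF3R_FIRST (7.36e-09). It stood at 629 ± 40.2 and 1000.2 ± 65.6 CPM there, against 290.4 ± 65.0 in EMPTY. The receptor alone raised it by 0.47 (adjusted p = 0.00758), and the fusion alone by 0.28, which did not pass (0.0842). Both genes were lower in RUNX1-ETO_FIRST than in CSF3R_FIRST, Atp13a2 by 0.37 (adjusted p = 0.00607) and Slc3a2 by 0.67 (0.0012).

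Paox, the peroxisomal oxidase of acetylated polyamines that acts after Sat1, fell in all 4 groups against EMPTY. It stood at 29.9 ± 2.39 CPM in EMPTY, 11.6 ± 1.003 in RUNX1-ETO_ONLY, 18.4 ± 2.37 in CSF3R_ONLY, 10.7 ± 1.78 in RUNX1-ETO_FIRST and 10.2 ± 1.07 in CSF3R_FIRST. The falls were 1.36, 0.70, 1.48 and 1.55 on the log2 scale, with adjusted p of at most 0.000456, and the EMPTY libraries did not overlap any other. Smox, the spermine oxidase, rose by 0.79 to 1.02 against EMPTY in the same 4 groups from a low level of 2.46 ± 0.113 CPM (adjusted p at most 0.00121). The antizymes Oaz1 and Oaz2, which target ODC protein for degradation, and the antizyme inhibitor Azin1 did not pass the threshold in any of the 4 comparisons except Oaz2 in CSF3R_FIRST (0.21, adjusted p = 0.0369). Azin2 fell in CSF3R_ONLY by 1.28 (adjusted p = 0.00136). Eif5a, the factor that carries the hypusine made from spermidine, and the hypusine enzymes Dhps and Dohh passed in none of the 4. The low-level paralog Eif5a2 rose with the receptor alone by 0.67 and fell in the other 3 groups by 0.59 to 1.08 (adjusted p at most 0.00945).

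**Figure D4:**
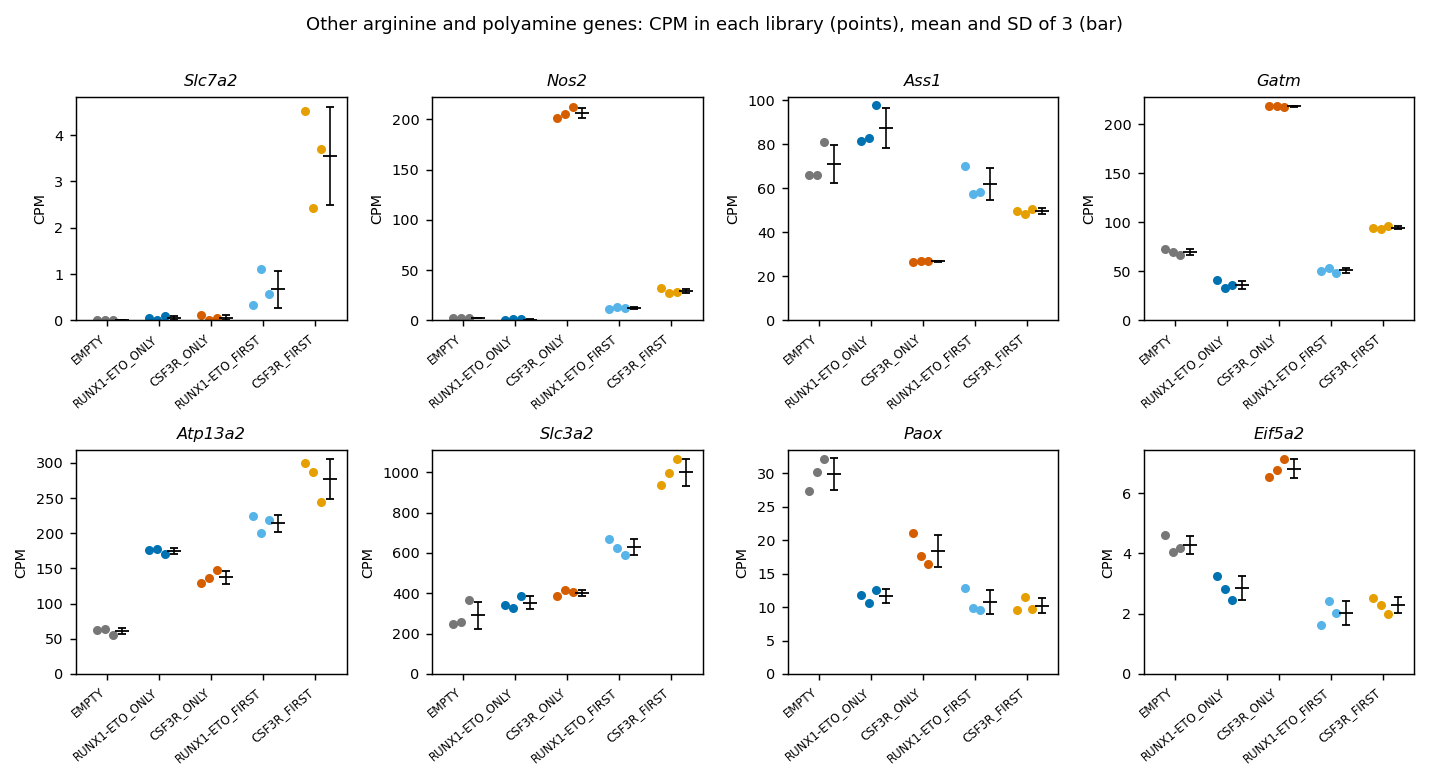
Each panel plots 1 other arginine or polyamine gene, with groups on the horizontal axis and CPM on the vertical axis from 0; points are single libraries and the black bar is the mean with the SD of 3 libraries. Slc7a2 is read in the 2 groups with both alleles, Nos2 stands at 206 CPM in CSF3R_ONLY, Atp13a2 climbs to 277 CPM in CSF3R_FIRST and Paox is highest in EMPTY.

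Methionine genes, which feed and recycle the aminopropyl donor, gave 9 tested genes. Against EMPTY, 6 fell with the receptor alone, where 33.1% of all genes passed. In CSF3R_FIRST again 6 fell, where 53.5% of all genes passed, and the other 3 did not pass in either. The medians of the 9 genes were -0.36 and -0.44, beside 0.00 and -0.05 over all genes. The falls in CSF3R_FIRST were led by Mtr, methionine synthase, at -1.05 (adjusted p = 4.73e-06), and Ahcy, which hydrolyses S-adenosylhomocysteine, at -0.59 (7.48e-05). Mat2a, which makes S-adenosylmethionine, rose with the fusion alone by 0.56 (adjusted p = 2.08e-05) and lay lower in RUNX1-ETO_FIRST than in RUNX1-ETO_ONLY by 0.52 (8.42e-05). Mtap, which salvages the by-product of Srm and Sms, fell with the receptor alone by 0.54 (adjusted p = 0.000972) and rose with the fusion alone by 0.34 (0.0178), the latter lost in 5 of 23 alternatives.

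Of 11 regulators tested, 8 were higher and 1, Myc, lower with the receptor alone. There 33.1% of all genes passed, 2617 higher and 1730 lower. The regulators had a median of 0.71, beside 0.00 over all genes. With the fusion alone Stat3 was higher and 5 were lower: Mxd1, Mxi1, Cebpa, Cebpb and Hif1a. In that comparison 39% of all genes passed, 2724 higher and 2393 lower. Myc stood at 648 ± 47.4 CPM in EMPTY and fell in the 3 groups with the receptor, by 0.39 in CSF3R_ONLY (adjusted p = 0.000995), 0.31 in RUNX1-ETO_FIRST (0.00439) and 0.45 in CSF3R_FIRST (0.000149). With the fusion alone it stood at 626 ± 48.1 CPM and did not pass. Mxd1, a MYC antagonist, rose by 1.76 with the receptor alone (adjusted p = 5.55e-10) and fell by 0.84 with the fusion alone (2.65e-06). Il4ra, the receptor chain through which interleukin 4 is known to induce Arg1 in macrophages, stood at 503 ± 13.3 CPM in CSF3R_ONLY, 339 ± 37.3 in CSF3R_FIRST, 212 ± 1.72 in RUNX1-ETO_FIRST, 58.5 ± 1.76 in RUNX1-ETO_ONLY and 65.2 ± 9.35 in EMPTY. Cebpb, another known activator of Arg1, was highest in CSF3R_ONLY at 175 ± 12.4 CPM and lowest in RUNX1-ETO_ONLY at 39.2 ± 2.74, against 107 ± 22.2 in EMPTY.

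Markers of other cell types moved with the groups. The summed level of 10 mast cell markers was 29430 to 33760 CPM in CSF3R_FIRST, 16657 to 19920 in RUNX1-ETO_FIRST, 12219 to 13270 in RUNX1-ETO_ONLY, 3752 to 3833 in CSF3R_ONLY and 1736 to 2170 in EMPTY, where Fcer1a was at 0. The sum of 8 markers of alternatively activated macrophages was 165 to 182 CPM in CSF3R_FIRST, 104 to 115 in RUNX1-ETO_FIRST, 124 to 145 in RUNX1-ETO_ONLY, 33.0 to 35.3 in CSF3R_ONLY and 9.39 to 13.5 in EMPTY. Of these 8 markers, 2 had a mean of at least 1 CPM in EMPTY, 3 in each single-allele group and 5 in each group with both alleles. The sums therefore rest on few genes. Ccl22 was at 0 in EMPTY and both single-allele groups, and Retnla, Ccl17 and Ccl24 in EMPTY. Of 10 monocyte and macrophage markers, C1qa was at 0 in every group, Mertk in EMPTY and both single-allele groups and C1qb in EMPTY and CSF3R_ONLY, and the sums were 195 to 443 CPM. Neutrophil markers summed to 4256 to 4576 CPM in CSF3R_ONLY, where Nos2, Gatm and Il4ra were highest, 979 to 1198 in CSF3R_FIRST and 386 to 697 elsewhere. The part of these cell types in the results was not tested.

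Over the 15 libraries, the gene most like Arg1 among 10036 examined was P4ha2, a collagen prolyl hydroxylase (Pearson r = 0.989 on log2 CPM), followed by Plod2, a lysyl hydroxylase (0.983), and Dnase2a, a lysosomal nuclease (0.981). P4ha2 stood at 27.2 ± 1.06 CPM in CSF3R_FIRST, 14.6 ± 1.05 in RUNX1-ETO_FIRST and 2.47 to 4.22 as group means elsewhere. Plod2 stood at 131 ± 6.09 and 108 ± 3.73 CPM in those 2 groups and at 44.9 to 46.3 in the other 3. By rank (Spearman), the correlation of Plod2 was 0.726. The leading genes for the others were Abhd17b for Arg2 (0.959), Eif3l for Odc1 (0.938), Trap1 for Sms (0.949), Prps2 for Amd1 (0.958) and Plin3 for Sat1 (0.960). For Srm it was Ppdpf at 0.9496, which dropped to 0.770 without the 4 libraries low in long transcripts. Libraries of a group share a condition, so these values describe the order of 5 groups more than 15 independent points. Among the members, Odc1 and Sms were most alike (r = 0.889), and the lowest values were -0.834 for Arg2 and Sms and -0.828 for Arg1 and Amd1.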

How the data were processed

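Per the labels' protocols, RNA cleaned on columns and treated with DNase was made into strand-specific mRNA libraries for BGI DNBSEQ sequencing. The values are raw counts by gene symbol, as the authors deposited them, in 1 table of 15 library columns. Trimmomatic, STAR, DESeq2 and mm10 appear in the submitters' processing notes; for the counting program, annotation and strand setting, "not given in the sources used here" applies. The 1 entry that names no gene held 0.0179% to 0.0305% of counts and was left out.

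Low genes were removed with edgeR 4.0.16 (filterByExpr by group, minimum count 10, minimum total 15), which left 13123. TMM factors were 0.921 to 1.09, and log2 CPM used a prior count of 2. Robust quasi-likelihood F tests under R 4.3.3 used 1 fit of all libraries (5 group means, leaving 10 residual degrees of freedom). P-values are two-sided, with Benjamini-Hochberg adjustment across the 13123 genes of each comparison and a threshold of 0.05. The fit was tested on simulated data. A gene without counts in a group was set against a floor of 3 counts per library, and ratios from few counts carry exact 95% intervals; both cover counting error only.

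The members and the gene lists were chosen with earlier results of these data known. From each list and comparison up to 4 genes with the largest change past the threshold were named, and every gene of a count of 5 or fewer could be. Slc7a1, Oat, Oaz1, Oaz2, Azin1, Atp13a3, Eif5a, Dhps, Dohh and Myc were named after their values were seen, and the 8 genes of the pathway plot were picked likewise. Likeness took the 3 highest Pearson correlations per member among genes whose mean log2 CPM was 1 or more. Pycr3 was matched by its older symbol Pycrl. Results of 1 further list gene enter the counts but are not reported here. Positions and exon lengths are from GENCODE M21 on mm10. Same-numbered libraries were checked for pairing by the correlation of their deviations from the group means: all 3 pairs exceeded 0.1 between EMPTY and RUNX1-ETO_ONLY (0.283 to 0.455) and between EMPTY and CSF3R_FIRST (0.136 to 0.370), and in no other pair of groups; the labels state no pairing. Alternatives were DESeq2 size factors, library sizes alone, no filter, DESeq2 1.42.0, limma 3.58.1 (voom with sample weights), the compared groups alone, a replicate block, and leaving out libraries.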

Additional observations from a re-analysis of the deposited data

Results flagged for a closer look

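Differences between a group with both alleles and the sum of the single-allele differences passed the threshold of edgeR's test for the following members and named pathway genes, given as log2 values. Among the members these were Odc1 at 0.46 in RUNX1-ETO_FIRST and 0.32 in CSF3R_FIRST, and Srm at 0.66 (0.42 without EMPTY replicate 3) and Sat1 at 0.57 in CSF3R_FIRST. Pycr1 lay above the sum by 1.14 in RUNX1-ETO_FIRST and 1.31 in CSF3R_FIRST. Ass1 lay above it by 0.59 and Slc3a2 by 1.03 in CSF3R_FIRST, and Azin2 by 1.32 and 1.84 in the 2 groups. Cebpa lay above it by 0.35 in RUNX1-ETO_FIRST.

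Below the sum in RUNX1-ETO_FIRST lay Nos2 at -2.19, Ddah2 at -1.5, Gatm at -1.16, Eif5a2 at -1.16, Il4ra at -1.09, Smox at -0.94, Atp13a2 at -0.89, Stat3 at -0.6, Mat2a at -0.46 and Mxi1 at -0.32. In CSF3R_FIRST these were Eif5a2 at -0.99, Smox at -0.74, Stat3 at -0.66, Mat2a at -0.65 and Il4ra at -0.42. Of the pathway values, Mxi1 was lost in 15 of 23 alternatives, Il4ra in CSF3R_FIRST in 12, Smox in CSF3R_FIRST in 6, Cebpa in 5 and Azin2 in RUNX1-ETO_FIRST in 3. Among the members, the values in CSF3R_FIRST were lost in 13 alternatives for Srm, 9 for Odc1 and 1 for Sat1.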

How the results depend on the processing

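Each test result was recomputed under 23 alternatives; Arg2 in RUNX1-ETO_FIRST against EMPTY or RUNX1-ETO_ONLY, and Gamt with the fusion alone, had no value with the compared groups alone, where they did not pass the filter. No call of a member changed direction while past the threshold. With library sizes alone as scaling, the median log2 value of all genes reached -0.20 in additivity of CSF3R_FIRST (from -0.04) and 0.15 between the single alleles (from 0.01). Below, the value with the reported settings comes first. Counts of members are of 6 genes, and also take in Arg1 where no group with both alleles enters. They include Arg2, which passed in CSF3R_ONLY and both groups with 2 alleles against EMPTY and between the single alleles. Calls of Arg1 and Arg2 are a description, since they passed the filter on low counts only through the groups in which they were high.

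Without the 4 libraries low in long transcripts, other pathway genes called between the orders went from 12 to 21, in additivity of RUNX1-ETO_FIRST from 16 to 29 and of CSF3R_FIRST from 11 to 22; limma-voom gave 20, 25 and 20. For CSF3R_FIRST additivity, DESeq2 gave 17 and library sizes alone 18 (5 higher and 13 lower, against 5 and 6), and DESeq2 size factors gave 8 higher and 5 lower. In RUNX1-ETO_FIRST against RUNX1-ETO_ONLY the split of 14 higher and 6 lower became 12 and 10 with library sizes alone.

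With the compared groups alone, members called went from 4 to 2 in RUNX1-ETO_ONLY and from 5 to 3 in RUNX1-ETO_FIRST against EMPTY, from 3 to 5 between the single alleles (also 5 with library sizes alone), and from 1 to 2 in CSF3R_FIRST against CSF3R_ONLY. The last count was 0 with DESeq2 size factors or no filter, 2 with library sizes alone, and 3 with limma-voom or without the 4 libraries. Members called in additivity of RUNX1-ETO_FIRST went from 1 to 3 with DESeq2 and 4 with limma-voom or without the 4 libraries, the fourth being Arg2, whose value there rests on groups of 4 and 6 counts; those of CSF3R_FIRST went from 3 to 1 with library sizes alone or no filter. Leaving out 1 library at a time gave 2 to 5 members in RUNX1-ETO_ONLY against EMPTY, 3 to 5 between the single alleles, 0 to 2 in CSF3R_FIRST against CSF3R_ONLY, and 1 to 3 in each additivity test. In RUNX1-ETO_ONLY against EMPTY a count of 5 takes in an arginase, at or near the floor in both groups, and nothing is read from it.

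Values near 0 changed sign. Amd1 in RUNX1-ETO_ONLY against EMPTY was -0.0044 with those groups alone and -0.033 to 0.056 leaving out 1 library. In RUNX1-ETO_FIRST against RUNX1-ETO_ONLY, Odc1 was 0.0068 by DESeq2 and with its size factors and -0.072 to 0.054 leaving out 1 library. Srm there was 0.033 by limma-voom, 0.022 without the 4 libraries and -0.082 to 0.093 leaving out 1 library. Sms in additivity of CSF3R_FIRST was -0.090 with library sizes alone. The cause was not tested.

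Replicate numbers met the condition for pairing in RUNX1-ETO_ONLY and in CSF3R_FIRST against EMPTY, and there the replicate block changed no call of a member or named pathway gene (pathway genes called went from 24 to 25 and stayed at 35). Replicate 3 of all these groups was low in long transcripts, and pairing cannot be told apart from that. EMPTY replicate 2 correlated more with CSF3R_FIRST replicate 1 (0.219) than with replicate 2 (0.136). Between EMPTY and RUNX1-ETO_ONLY every same-numbered pair lay above the others. In the other comparisons the libraries share only a number: of all 30 same-numbered pairs 9 correlated above 0.1 (r from -0.243 to 0.455), and 8 of 15 libraries correlated best with their own number. With the block, members called in additivity of RUNX1-ETO_FIRST went from 1 to 2 (Srm, 0.61, adjusted p = 0.0314), and no other count of members changed. With 3 libraries a group, depth limits Arg2, Slc7a2 and Slc7a7, whose counts in the low groups are single digits.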

Other observations

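Slc7a7, the exporter of arginine at the basolateral membrane of other tissues, was low in a different set of groups from Slc7a2, although RUNX1-ETO_ONLY was low for both. It had 60 counts in EMPTY and 51 in CSF3R_ONLY, but 3 with the fusion alone, 4 in RUNX1-ETO_FIRST and 8 in CSF3R_FIRST. The count ratio to EMPTY was 0.0454 with the fusion alone (exact 95% interval 0.00911 to 0.139). In RUNX1-ETO_FIRST it was 0.0655 (0.0173 to 0.177), and in CSF3R_FIRST 0.141 (0.0581 to 0.295), so the 3 groups labelled with the fusion were the low ones. Mycn, another member of the MYC family, had 7, 1 and 8 counts in EMPTY and 6, 1 and 6 in RUNX1-ETO_ONLY, against 36 to 54 in every library with the receptor. It rose over EMPTY by 3.05 in CSF3R_ONLY (adjusted p = 3.56e-05), 3.07 in RUNX1-ETO_FIRST (2.01e-05) and 3.23 in CSF3R_FIRST (8.02e-06), while Myc fell in the same 3 groups. Mycn passed the filter on low counts only through the groups with the receptor, so its p-values are a description.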
